A study of Mus musculus with 10 samples.

Results

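The Reg genes encode a family of small secreted C-type lectins, and the mouse members counted here were Reg1, Reg2, Reg3a, Reg3b, Reg3d, Reg3g and Reg4. They were taken by gene symbol, 7 of the 24062 symbols in the count table of each library, and all 7 passed the filter on low counts that left 17632 genes for testing. RNA sequencing of the jejunum at postnatal day 5 addressed the effect of keratinocyte-derived IL-23 on intestinal gene expression. The control group was WT (genotype wild type, strain C57BL/6, 5 libraries). The other group was KSR23 (genotype KSR23+, strain C57BL/6, 5 libraries). These mice carried a cassette for the p19 and p40 subunits of IL-23 in the ROSA26 locus, kept off by a floxed STOP and opened by a cre recombinase under the keratin 14 promoter, which is active in keratinocytes and other stratified epithelia. Libraries were made from picogram amounts of RNA. The study describes them as biological replicates, while the labels do not name the animals, and p-values measure the spread between these libraries.

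Reg3b and Reg3g are made by enterocytes and Paneth cells and act on bacteria at the epithelial surface. Reg3g binds the peptidoglycan of Gram-positive bacteria. IL-23 drives lymphoid cells to make IL-22, which acts on epithelial cells through the receptor chains Il22ra1 and Il10rb, the kinases Jak1 and Tyk2 and the transcription factor Stat3, and Reg3b and Reg3g are classical targets of this pathway. Reg1 and Reg2 are best known from the exocrine pancreas and regenerating islets, and Reg4 marks secretory and enteroendocrine cells of the gut.

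In build mm10 (GENCODE mouse M21), 6 of the 7 genes lay in one cluster of 98.2 kb on chromosome 6 with 0 other annotated genes between them. The order along the chromosome was Reg3b (78370657 to 78373466, plus strand), Reg3d (78375874 to 78378865, minus strand), Reg3a (78380709 to 78383827, plus strand), Reg2 (78395623 to 78408106, plus strand), Reg1 (78422711 to 78428667, plus strand) and Reg3g (78466269 to 78468872, minus strand). Reg4 lay apart, on chromosome 3 (98222156 to 98236748, plus strand). Reg3b and Reg3g therefore sat at the opposite ends of the cluster. None of the 7 overlapped another annotated gene. Reads that aligned to more than 1 place entered no gene, and the share of 75-base stretches of a member that also occur in another gene was 0% for all members except Reg2 (4.58%), so Reg2 counts are the least certain. Over aligned positions of the main transcripts, Reg1 and Reg2 were 79.7% identical, Reg3a and Reg3b 75.9% and Reg3b and Reg3g 74.7%. Reg4 matched the other members at 64.3 to 66.3%, in the range of the more distant pairs inside the cluster, such as Reg1 and Reg3a (63.9%) and Reg2 and Reg3g (63.9%).

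The promoters of Reg3b and Reg3g are shown because these 2 genes moved together and by far more than the rest. Each window covers 250 bases before and 50 bases after the RefSeq start (GRCm38.p6, the assembly of mm10), at chr6:78370635-78370934 on the plus strand for Reg3b and chr6:78468825-78469124 on the minus strand for Reg3g. The GENCODE gene of Reg3b starts at 78370657, upstream of the RefSeq start, so most of the Reg3b window lies inside that gene. Capitals mark the longest run that both windows share.
Reg3b: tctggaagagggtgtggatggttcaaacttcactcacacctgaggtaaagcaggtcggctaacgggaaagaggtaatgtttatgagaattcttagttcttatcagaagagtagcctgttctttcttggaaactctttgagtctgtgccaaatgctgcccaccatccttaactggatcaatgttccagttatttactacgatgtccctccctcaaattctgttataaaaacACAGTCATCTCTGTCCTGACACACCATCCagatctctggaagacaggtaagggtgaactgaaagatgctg
Reg3g: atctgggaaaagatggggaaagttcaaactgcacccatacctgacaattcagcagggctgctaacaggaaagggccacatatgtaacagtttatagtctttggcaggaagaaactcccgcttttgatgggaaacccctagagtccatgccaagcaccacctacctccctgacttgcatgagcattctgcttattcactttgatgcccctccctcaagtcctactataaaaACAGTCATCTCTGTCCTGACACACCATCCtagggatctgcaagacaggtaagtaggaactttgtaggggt
The shared run was 29 bases long, began 20 bases before the start in both genes, and was found in 2 of 32851 mouse promoter windows of this length, these 2. The next longest run between any members was 14 bases, between Reg3a and Reg3g. The letters TTCNNNGAA, a palindrome that Stat proteins are known to bind, were present in the windows of Reg3b (TTCTTGGAA, 129 to 121 bases before the start) and Reg3d (TTCCCAGAA, 238 to 230 bases before the start), and in 8.3% of all windows. The letters TATAAA, searched on both strands, were present in the windows of Reg1, Reg2, Reg3b and Reg3g, 4 of 7, and in 13.62% of all windows, and overlapped no TTCNNNGAA match. These matches describe the sequence only and do not show that a factor binds there.

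Gene counts per library ran from 25.5 to 32.0 M in WT and from 31.2 to 60.9 M in KSR23 (M stands for 1e6). Levels below are CPM, counts per M after scaling by trimmed mean of M-values (TMM) factors, unless raw counts are named, and 3 counts, taken as the floor, corresponded to 0.0492 to 0.118 CPM of the unscaled totals. Replicates 4 and 5 of both groups stood apart. A library of 5 that vary alike would be the highest or lowest of its group in 40% of genes, but these libraries were so in 8.53 to 18.4% of 9737 genes, against 45.7 to 75.6% for replicates 1 to 3. The counts of replicates 4 and 5 were close to weighted sums of those of replicates 1 to 3. With weights fitted on all genes except the 7 Reg genes, the median absolute log2 difference between the sum and the observed count was 0.0774 (replicate 4) and 0.0862 (replicate 5) for WT and 0.105 (replicate 4) and 0.126 (replicate 5) for KSR23. The same measure for replicates 1 to 3, fitted from the other 4 libraries of their group, was 0.206 to 0.487. The weights placed 44.2% of WT replicate 4 in replicate 1 and 53.8% in replicate 2, and 78.0% of WT replicate 5 in replicate 1 and 21.7% in replicate 3. The fold changes of the members, their WT spread and their share of counts are therefore also given for replicates 1 to 3 alone.

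The Reg counts, which took no part in that fit, were also near these sums in WT, but less so in KSR23. WT replicate 4 held 12157 Reg3b counts against 11844 in the weighted sum, and WT replicate 5 held 16051 against 16359. All log2 differences of the 7 members in these WT libraries were within 0.35. Over the 7 members and 4 libraries, 26 of 28 log2 differences were within 0.5, and their median size was 0.19. That limit is wider than the medians of replicates 1 to 3 over all genes (0.206 to 0.487), so it does not separate near from far. In KSR23 replicates 4 and 5 each member exceeded the sum, from 0.13 on the log2 scale for Reg4 in replicate 5 to 0.76 for Reg3a in replicate 5. The medians over all genes were 0.105 and 0.126 in these libraries. These values stand beside the study's description of the libraries as biological replicates, and why the counts lie near such sums was not tested.

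**Figure D1:**
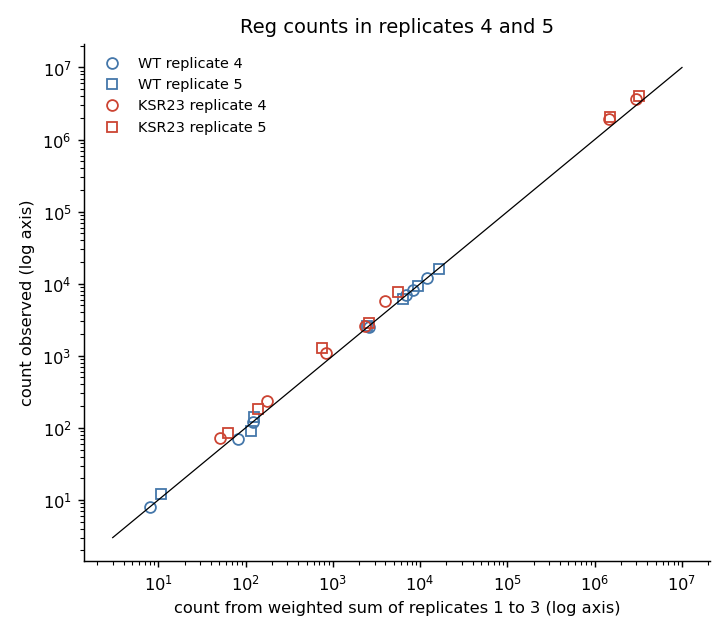
Counts of the 7 Reg genes observed in replicates 4 and 5 (y axis) against the count given by a weighted sum of replicates 1 to 3 of the same group (x axis), both log axes. Circles are replicate 4, squares replicate 5, blue WT and red KSR23, and the line marks equality. WT points lie on the line within 0.35 on the log2 scale, and KSR23 points lie above it by 0.13 to 0.76.

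To determine how the antimicrobial members differed, Reg3b and Reg3g were compared first. Reg3b was measured at 757.6, 29.3, 28.8, 350.1 and 602.7 CPM in WT replicates 1 to 5, and at 50420, 45620, 128500, 64230 and 112300 CPM in KSR23 replicates 1 to 5. The lowest KSR23 library was 60.2-fold above the highest WT library. Reg3b rose by 7.83 on the log2 scale (SE 0.74, n = 5 per group, edgeR likelihood ratio test adjusted p = 3.77e-13; quasi-likelihood test adjusted p = 0.000544). It was the most abundant gene in each KSR23 library, whereas its rank in WT ran from 140 in replicate 1 to 4556 in replicate 2.

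Reg3g followed the same order of libraries. It stood at 436.0, 21.1, 19.9, 201.4 and 350.8 CPM in WT replicates 1 to 5 and at 26060, 19370, 60900, 33970 and 57750 CPM in KSR23. The groups did not overlap, and the gap between the highest WT and the lowest KSR23 library was 44.4-fold. Its log2 fold change was 7.59 (SE 0.71, likelihood ratio test adjusted p = 1.71e-13; quasi-likelihood adjusted p = 0.000459). By counts, Reg3g held rank 4 in KSR23 replicate 2 and rank 3 in the other KSR23 libraries. On replicates 1 to 3 the log2 fold changes were 8.15 for Reg3b (adjusted p = 6.81e-06) and 7.84 for Reg3g, both called by the likelihood ratio test, while the quasi-likelihood test called neither (adjusted p = 0.0727 and 0.0667).

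Reg3a and Reg3d, the neighbours of Reg3b in the cluster, rose by less. Reg3a was at 5.45, 1.98, 1.65, 3.51 and 5.26 CPM in WT and at 14.5, 14.6, 26.9, 19.1 and 35.6 CPM in KSR23 (replicates 1 to 5), an increase of 2.63 on the log2 scale (SE 0.42, likelihood ratio test adjusted p = 1.64e-07). Reg3d had 16, 1, 0, 8 and 12 counts in WT and 257, 56, 138, 233 and 183 counts in KSR23. All KSR23 libraries lay above all WT libraries for both genes, but 2 of the 5 WT libraries were under the floor of 3 counts for Reg3d. The log2 fold change of Reg3d was 4.03 (SE 0.63, likelihood ratio test adjusted p = 1.64e-07). By the quasi-likelihood test the adjusted p was 0.00135 for Reg3a and 0.00277 for Reg3d. On replicates 1 to 3 the log2 fold change was 2.66 for Reg3a (likelihood ratio adjusted p = 0.00664, quasi-likelihood adjusted p = 0.112) and 4.35 for Reg3d (0.00945 and 0.174 by the same tests).

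Reg4 was the single member that fell. It was at 234.6, 240.5, 250.1, 235.7 and 230.8 CPM in WT replicates 1 to 5 and at 23.9, 78.4, 77.3, 46.2 and 81.1 CPM in KSR23. The lowest WT library was 2.85-fold above the highest KSR23 library, and KSR23 replicate 1 was the lowest of all. The log2 fold change was -1.96 (SE 0.33, likelihood ratio test adjusted p = 4.79e-07; quasi-likelihood adjusted p = 0.00138), and -1.98 in replicates 1 to 3 (likelihood ratio adjusted p = 0.0294, quasi-likelihood adjusted p = 0.163).

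Reg1 and Reg2 were not called. Reg1 was at 105.9, 50.6, 35.5, 71.1 and 96.5 CPM in WT and at 12.6, 189.9, 151.0, 103.5 and 216.7 CPM in KSR23 (replicates 1 to 5; log2 fold change 0.91, SE 0.56, likelihood ratio test adjusted p = 0.277). In 3 of the 5 KSR23 libraries Reg1 exceeded every WT library, and in replicate 1 it was below every WT library. Without KSR23 replicate 1 the log2 fold change of Reg1 was 1.25 and passed the test (edgeR adjusted p = 0.00652). Reg2 had 172, 3, 4, 70 and 90 counts in WT and 48, 35, 59, 72 and 85 counts in KSR23, so the KSR23 libraries lay inside the WT range (log2 fold change -0.49, SE 0.81, likelihood ratio test adjusted p = 0.742). Its sign depended on WT replicate 1, without which the log2 fold change was 0.14. On replicates 1 to 3 Reg1 had 0.92 and Reg2 -0.39, and neither passed.

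**Figure D2:**
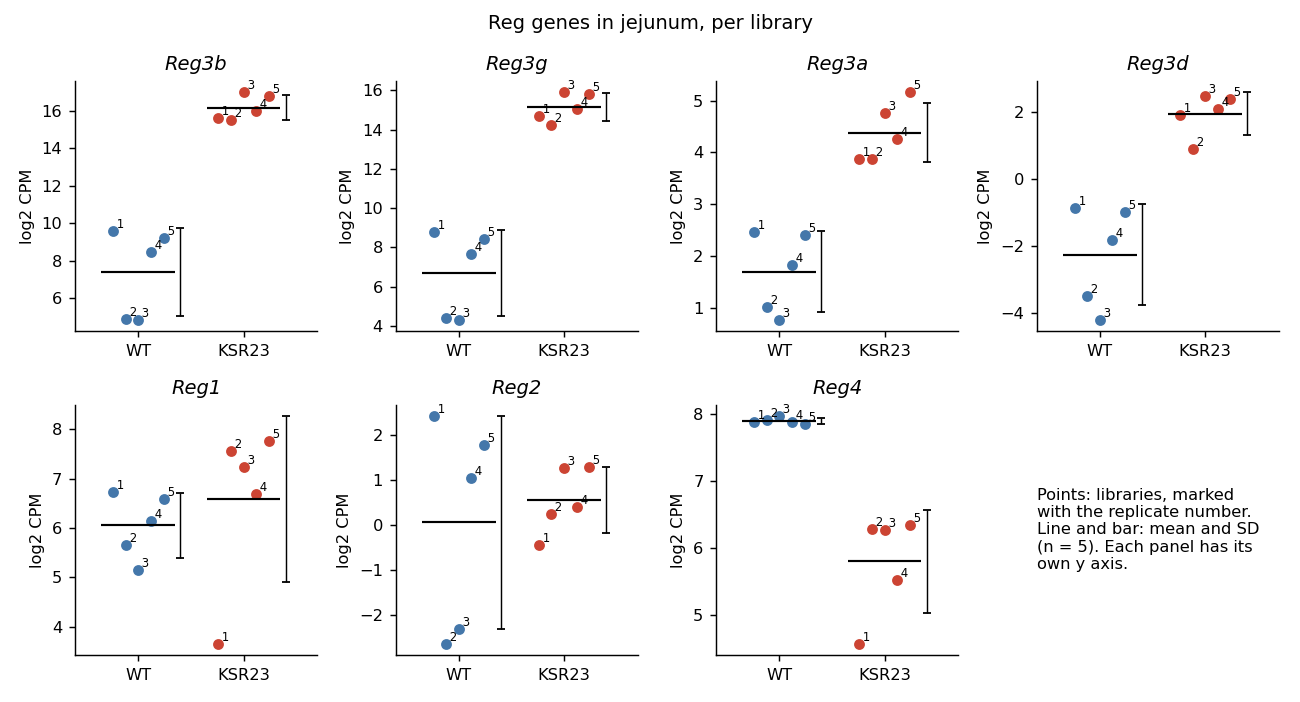
log2 CPM (y axis, its own range in each panel) of the 7 Reg genes in the 5 WT (blue) and 5 KSR23 (red) libraries, with replicate numbers beside the points. Lines and bars are the mean and SD (n = 5). Reg3b, Reg3g, Reg3a and Reg3d lie higher in KSR23 without overlap, Reg4 lower without overlap, and Reg1 and Reg2 overlap.

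By the likelihood ratio test 4 of the 7 members were higher in KSR23 (9.73% of all tested genes were) and 1 was lower (8.76% of all tested genes). In either direction 5 of 7 were called, against 18.5% of all genes, and the quasi-likelihood test called the same 5 of 7, against 15.4%. CPM did not overlap between the groups for those 5, against 14.4% of all genes. Restricted to replicates 1 to 3, 5 of 7 members passed the likelihood ratio test, against 3.36% of 17243 genes, and 0 of 7 passed the quasi-likelihood test (5 of 7 at an unadjusted p under 0.05), against 0.812%. The median log2 fold change of the members was 2.63, beside 0.03 over all tested genes. In these bulk libraries, fewer cells expressing a gene and less RNA per cell cannot be told apart.

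**Figure D3:**
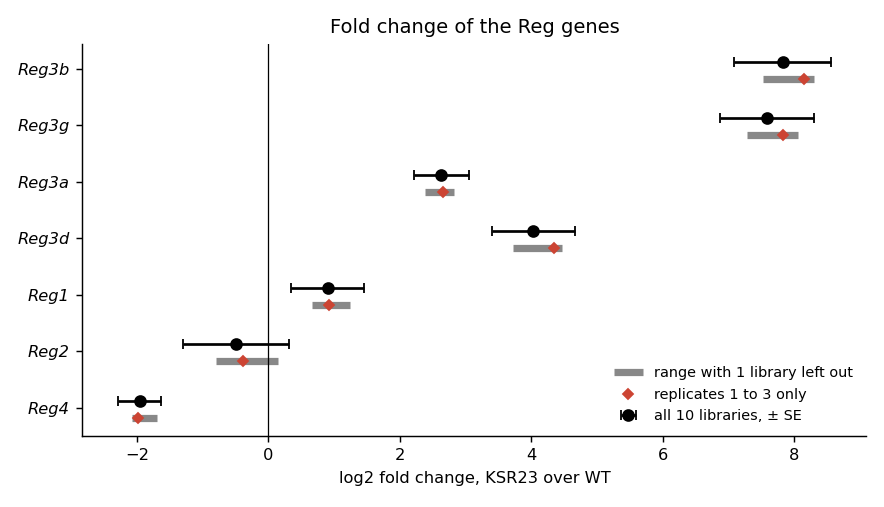
log2 fold change, KSR23 over WT (x axis), of the 7 Reg genes. Black points and bars are the fit on all 10 libraries with its SE, grey bars the range when 1 library is left out, and red diamonds the fit on replicates 1 to 3. The grey bar of Reg2 crosses 0 (-0.79 to 0.14), and that of Reg3b runs from 7.53 to 8.31.

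The members differed widely in level. Per kb of the main transcript, the mean levels in WT were 451.7 CPM per kb for Reg3b, 267.0 for Reg3g, 233.4 for Reg4, 93.5 for Reg1, 4.33 for Reg3a, 3.14 for Reg2 and 0.310 for Reg3d. In this order Reg3g and Reg4 did not differ beyond their spread, Reg3g being higher in 3 of 5 libraries, nor did Reg3a and Reg2, where Reg3a was higher in 4 of 5. The other neighbours kept their order in each WT library. In KSR23 the levels per kb were 102400 CPM for Reg3b, 51380 for Reg3g, 175.2 for Reg1, 60.1 for Reg4, 26.8 for Reg3a, 5.18 for Reg3d and 2.24 for Reg2. Of these neighbours Reg1 and Reg4 did not differ beyond their spread (Reg1 was higher in 4 of 5 libraries), and the others kept their order in each library.

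As a share of all gene counts, the 7 Reg genes took 0.163, 0.0381, 0.0299, 0.0937 and 0.132% in WT (replicates 1 to 5). The KSR23 shares were 8.83, 6.49, 15.1, 10.8 and 14.7%. The mean share was 0.0912% ± 0.0578 (SD, n = 5) for WT and 11.2% ± 3.74 (SD, n = 5) for KSR23, a difference of 11.1 percentage points (two-sided exact permutation p = 0.00794, the smallest that 5 against 5 allows). In replicates 1 to 3 the difference was 10.1 points, where the smallest possible exact p is 0.1. Reg3b and Reg3g together made up 99.6 to 99.9% of the Reg counts in KSR23. In WT replicates 2 and 3 they made up 14.7 and 14.5%, and Reg4 held 70.0 and 74.4% of the Reg counts there. WT libraries thus differed in which member led: Reg3b in replicates 1, 4 and 5, and Reg4 in replicates 2 and 3.

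Because the Reg transcripts took so large a share in KSR23, ratios between members within a library, which need no scaling, were compared over all 21 pairs. The log2 ratio differed between groups in 19 of 21 pairs (two-sided exact permutation, adjusted p under 0.05 over the 21 pairs), and in 18 pairs the groups did not overlap. The ratio of Reg3b to Reg3g was the steadiest. It was 0.68 ± 0.16 on the log2 scale in WT (0.48 to 0.80) and 1.03 ± 0.13 in KSR23 (0.92 to 1.24; SD, n = 5 each), a shift of 0.35 (exact permutation p = 0.00794, adjusted p = 0.00926), while both genes rose by more than 7 on that scale. Reg3b counts therefore exceeded Reg3g counts in all 10 libraries, and by more in KSR23.

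Ratios of Reg3b and Reg3g to Reg4 moved furthest. The log2 ratio of Reg3b to Reg4 went from -0.50 ± 2.39 to 10.36 ± 0.70 (SD, n = 5 each; exact permutation adjusted p = 0.00926), and in WT it ran from -3.12 to 1.69. Reg1 over Reg4 went from -1.84 ± 0.70 to 0.78 ± 0.97 with the same adjusted p and without overlap, although Reg1 itself was not called. Reg2 over Reg3b was narrow within each group and far apart between them, at -7.48 ± 0.26 (SD, n = 5) for WT and -15.66 ± 0.32 (SD, n = 5) for KSR23. Reg1 over Reg3a was narrow in WT (4.38 ± 0.18) and wide in KSR23 (2.21 ± 1.44). The 2 pairs that did not pass were Reg1 over Reg2 (shift -0.06, exact permutation p = 0.944) and Reg2 over Reg3a (shift -2.11, exact permutation p = 0.0476, adjusted p = 0.05). In replicates 1 to 3 no pair can pass, since 3 against 3 allows no exact p below 0.1.

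**Figure D4:**
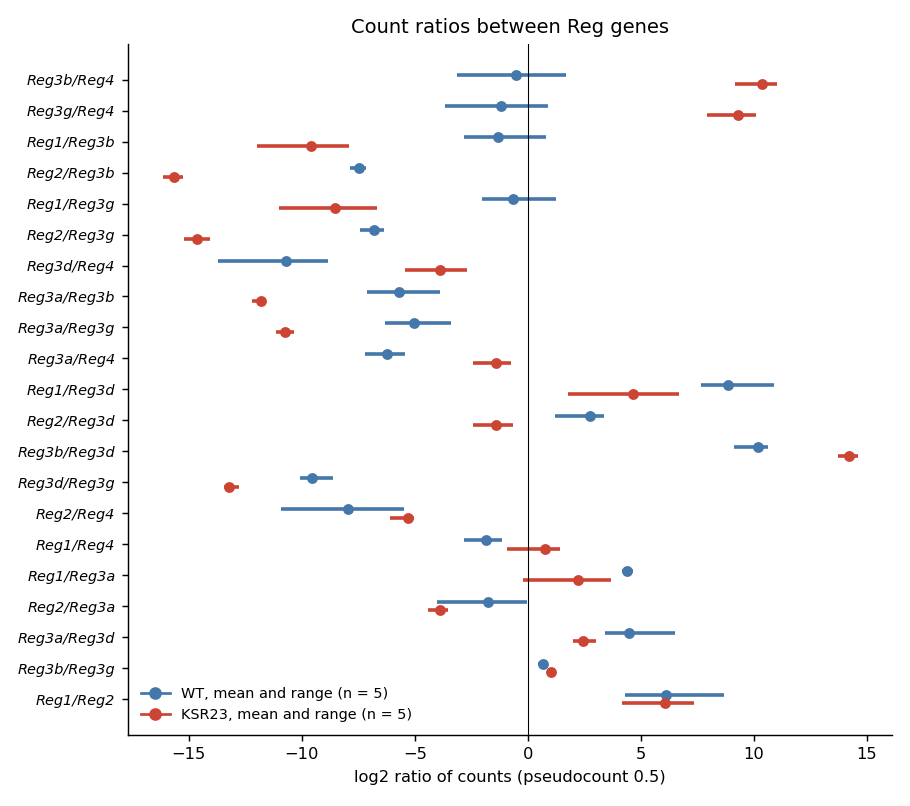
log2 ratio of counts between Reg genes (x axis, pseudocount 0.5) for all 21 pairs, ordered by the size of the shift between groups. Points are means and lines ranges over 5 libraries, blue WT and red KSR23. Reg3b over Reg4 shifts most (10.86), and Reg3b over Reg3g has short lines in both groups.

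The spread within WT differed by member. Between the highest and lowest WT library, CPM differed 26.3-fold for Reg3b, 21.9-fold for Reg3g and 50.2-fold for Reg2, whereas the factor was 3.30 for Reg3a, 2.98 for Reg1 and 1.08 for Reg4. The SD of log2 CPM over WT libraries was 2.35 for Reg3b, 2.19 for Reg3g and 2.37 for Reg2, above that of 99.8, 99.6 and 99.8% of tested genes, beside a median of 0.46 over all genes. For Reg4 it was 0.04, below that of all but 1.13% of tested genes, or 0.10 when library totals alone were used for scaling. On replicates 1 to 3 the WT SD was 2.72 for Reg3b, 2.55 for Reg3g, 2.84 for Reg2, 1.76 for Reg3d, 0.91 for Reg3a, 0.80 for Reg1 and 0.05 for Reg4. In KSR23, Reg1 had an SD of 1.68 (17.2-fold between libraries), which rested on replicate 1, without which it was 0.47. Reg3b (0.68), Reg3g (0.72) and Reg2 (0.73) were near the median of all genes (0.60) in KSR23.

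With the group means taken out, Reg3b, Reg3g, Reg2, Reg3d and Reg3a deviated together over the 10 libraries. The Pearson r of log2 CPM was highest for Reg3b and Reg3g, and was 0.99 for Reg2 and Reg3b, 0.96 for Reg3b and Reg3d and 0.91 for Reg3a and Reg3b. Reg4 was near 0 with Reg3b (0.10) and Reg3g (0.08). Reg1 had an r of 0.88 with Reg4, 0.60 with Reg3a, 0.54 with Reg2 and 0.45 with Reg3b. KSR23 replicate 1 was the lowest KSR23 library for both Reg1 and Reg4, whereas among WT libraries Reg1 was lower in replicates 2 and 3 and Reg4 was not. The 10 points share scaling factors and include the replicates near weighted sums, so these values are descriptions only.

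Among 9732 other genes with a mean of 5 CPM or more, those most like Reg3b by this measure were Bcl2l15 (r 0.982), Retnlb (0.975), Cyp4a12a (0.968), Casq2 (0.965) and Col8a1 (0.954). Of these, Bcl2l15, Retnlb and Cyp4a12a had means of 1.08, 0.876 and 0.153 CPM in WT, so they reached the minimum of 5 CPM only through KSR23 and their higher level there is not a separate result. Their WT deviations rest on few counts (Retnlb had 50, 1, 2, 28 and 51 counts in WT replicates 1 to 5). Those most like Reg1 were Gm766 (0.970), Gm11545 (0.969), Aldh1a7 (0.968), Ereg (0.966) and Stom (0.966). Those most like Reg4 were Gstm6 (0.981), Krt20 (0.980), Ggt1 (0.980), Ambp (0.978) and Pla2g2d (0.976). These genes moved in both directions between the groups. The log2 fold changes of those like Reg1 were 7.28 for Gm766, 3.96 for Gm11545, 2.73 for Ereg, 2.51 for Stom and -3.24 for Aldh1a7, and of those like Reg4, 2.22 for Krt20, 3.20 for Ggt1, 2.17 for Pla2g2d, -0.74 for Gstm6 and -0.72 for Ambp, the last 2 not called. Ereg and Pla2g2d, at 2.84 and 2.33 CPM in WT, also reached the minimum of 5 CPM only through KSR23.

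Reg1 and Reg2 are abundant in pancreas, so pancreatic markers were set beside the WT spread. Of 15 acinar markers, Amy2a5 and Ptf1a had 0 counts in all 10 libraries, and Amy2b, Pnlip and Rbpjl had at most 3 in any. The other 10 were tested. Prss2, a trypsinogen, had 363, 8, 11, 147 and 170 counts in WT replicates 1 to 5, the same order of libraries as Reg2. In CPM, 8 of the 10 tested markers were lower in both WT replicates 2 and 3 than in the other 3 WT libraries, but Ctrl (24, 15, 6, 18 and 9 counts in replicates 1 to 5) and Sycn (17, 17, 4, 9 and 10 counts) were not. Of the 8, Ctrb1, chymotrypsinogen, differed little between WT libraries (1996 to 3053 counts).

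In KSR23, 8 of the 10 tested acinar markers were lower and 0 higher (7 by the quasi-likelihood test), with a median log2 fold change of -6.21. Over all tested genes 8.76% were lower. The summed level of the 10 tested markers was 75.0 to 125 CPM in WT, most of it Ctrb1, and 1.08 to 3.33 CPM in KSR23. Prss2 had 0, 0, 0, 1 and 0 counts in KSR23, where Reg2 still had 35 to 85 counts and Reg3b over 1 M. Among WT libraries 8 of the 10 tested acinar markers and 6 of the 7 Reg genes were thus lower in replicates 2 and 3. This order was chosen after the values were seen. It was also that of 21.6% of all tested genes and 28.3% of those with a mean of 5 CPM or more. Both shares were smaller than in either list, and the reason was not tested. Between the groups Reg3a, Reg3b, Reg3d and Reg3g were higher in KSR23, and the 8 called acinar markers were lower. The part of pancreatic RNA in the WT levels of the Reg genes was not tested. Islet markers were few, with Ins1 and Ins2 at 0 to 7 counts in any library and Iapp lower in KSR23 (log2 fold change -1.27, SE 0.40, likelihood ratio test adjusted p = 0.0122), a call that was lost in replicates 1 to 3, with the replicate block and without WT replicate 5.

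**Figure D5:**
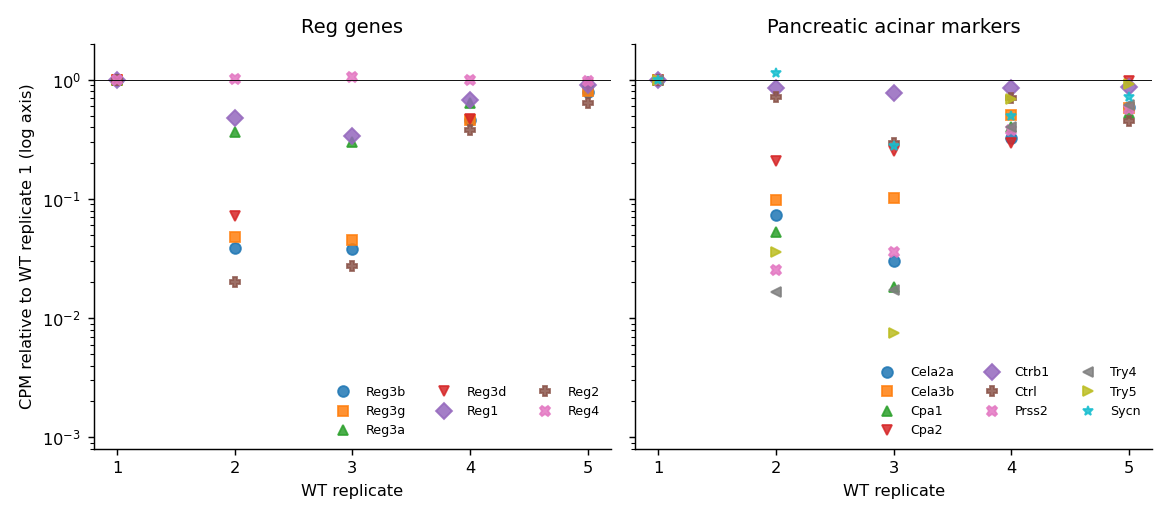
CPM relative to WT replicate 1 (y axis, log axis) in the 5 WT libraries for the 7 Reg genes (left) and the 10 tested pancreatic acinar markers (right), and values of 0 are not drawn. In replicates 2 and 3, 6 of 7 Reg genes and 8 of 10 acinar markers are lower than in the other libraries, Ctrl and Sycn are not, and Reg4 and Ctrb1 stay close to 1.

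The IL-22 pathway was then examined over a list of 24 genes, which also held Extl3, a proposed receptor for Reg proteins rather than an upstream gene. Of the 24, 23 were tested, and the remaining gene, Il17a, never exceeded 3 counts. By the likelihood ratio test 11 of 23 were higher and 0 lower in KSR23, with a median log2 fold change of 1.18. Over all tested genes 9.73% were higher and 8.76% lower. The quasi-likelihood test called 7, against 15.4% of all genes. In replicates 1 to 3 the likelihood ratio test called 2, against 3.36% of all genes. The count of 11 depended on single libraries. It was 5 without WT replicate 5, and 7 without WT replicate 1, WT replicate 4, KSR23 replicate 4 or KSR23 replicate 5. Among the 11 was Il22ra2, with 0 counts in every WT library and 38, 0, 0, 37 and 0 counts in KSR23 replicates 1 to 5. It did not pass the quasi-likelihood test (adjusted p = 0.101). Il22, the cytokine, had 1, 0, 0, 0 and 1 counts in WT and 287, 137, 284, 250 and 329 counts in KSR23, at least 59.4-fold higher against the floor of 3 counts per library. Its receptor chain Il22ra1 rose by 1.39 on the log2 scale (SE 0.29, adjusted p = 6.84e-05 by edgeR), whereas the other chain Il10rb had -0.10 (SE 0.33, edgeR adjusted p = 0.880).

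Among the signalling genes, Socs3, a feedback inhibitor of Stat3 signalling, rose most (log2 fold change 4.36, SE 0.60, edgeR adjusted p = 1.54e-08). Stat3 itself had a log2 fold change of 1.07 and did not pass (edgeR adjusted p = 0.0887), nor did Jak1 (0.19). Extl3, a proposed receptor for Reg proteins, had 0.55 and did not pass (edgeR adjusted p = 0.286). The p40 gene Il12b had 0 to 5 counts in WT and 9 to 40 in KSR23 (log2 fold change 2.32, edgeR adjusted p = 0.00364), and the p19 gene Il23a had 1 to 14 in WT and 8 to 34 in KSR23 (0.95, adjusted p = 0.270). These are the genes of the cassette, and both were at low counts in the jejunum.

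Of 16 other epithelial antimicrobial genes, 12 were higher and 1 lower (13 by the quasi-likelihood test), with a median log2 fold change of 2.94. Over all tested genes 9.73% were higher and 8.76% lower. Among those higher were Saa3, an acute-phase protein (8.67, SE 0.35), Duox2, a hydrogen peroxide-generating oxidase (8.15, SE 0.53), Nos2, the inducible nitric oxide synthase (6.07, SE 0.43), and Retnlb, a goblet cell protein that acts on bacteria (5.88, SE 0.74). Ang4, a ribonuclease of Paneth cells, was lower (-0.85, SE 0.26, likelihood ratio test adjusted p = 0.00921). The levels of Saa3, Duox2 and Nos2 in WT were 0 to 25 counts per library.

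Markers of the cells that make Reg proteins moved in part with them. The likelihood ratio test called 9.73% of all tested genes higher and 8.76% lower in KSR23. Of 8 Paneth markers, 5 were higher and 1 lower, among them Lyz1 (log2 fold change 3.24, SE 0.31) and Mmp7 (2.88, SE 0.29), while Defa17 (0.03) and Defa24 (-0.08) did not pass, and the summed level of the list was 272 to 461 CPM in WT and 917 to 1990 CPM in KSR23. Of 9 goblet markers, 7 were higher and 0 lower (2 in replicates 1 to 3), with a summed level of 1570 to 2200 CPM in WT and 2930 to 5610 CPM in KSR23. Such sums weigh abundant genes most, such as the goblet marker Tff3 (mean of 857 CPM in WT, log2 fold change 0.24, not called). The goblet marker Zg16 rose by 3.23 (SE 0.33). Of 8 enterocyte markers, Cdh17 was higher and Fabp1, Fabp2 and Lct were lower, but Fabp1 and Lct did not pass the quasi-likelihood test, and 0 of the 8 passed in replicates 1 to 3. The list summed to 37800 to 155000 CPM, so defining genes of the labelled tissue were abundant. Enteroendocrine markers, set beside Reg4, showed 1 of 14 higher (Neurod1) and 1 lower (Gip, log2 fold change -0.99), with a summed level of 626 to 896 CPM in WT and 530.0 to 638 CPM in KSR23. Of the immune markers 1 of 6 (Itgam) was higher, and of the smooth muscle markers 1 of 4 (Acta2) was lower. These calls were lost when some single libraries were left out: the count was 0 in 5 of 10 such fits for the immune list and in 7 of 10 for smooth muscle, and the enteroendocrine count was 0 in 4 of 10. Called enteroendocrine, immune and smooth muscle markers were few, near the 18.5% of all tested genes called in either direction. The part of cell composition in the Reg levels was not tested.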

How the data were processed

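The labels describe oligo-dT priming, PCR amplification of picogram amounts of RNA, transposase tagging and single-end sequencing. Molecular identifiers were absent, so the floor covers counting error only. The authors mapped reads to mm10 with TopHat2 2.1.0 and counted reads per gene with HTSeq 0.6.1p1, and the deposited counts were whole numbers, not normalized. The strand setting is not given in the sources used here. Reads with more than 1 alignment (8.62 to 17.1 M per library) and the counter's other totals entered no gene.

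The filter required 5 counts in at least 1 library, and the 17632 genes left were fitted in edgeR 4.0.16 (R 4.3.3) with TMM factors and group as the only term. The likelihood ratio test, the study's test, was the main one, with Benjamini-Hochberg adjustment over all tested genes and a threshold of 0.05. The quasi-likelihood test and DESeq2 1.42.0 were alternatives. log2 CPM used a prior count of 2 and ratios a pseudocount of 0.5. Exact tests used the 252 labelled splits of 10 libraries. Weighted sums were fitted by non-negative least squares and added after the data were seen. Positions came from GENCODE M21, which held 94.6% of the symbols, and promoters from RefSeq, where all 7 members matched. Genes were named as members, as listed pathway or marker genes, or as the 5 genes most like Reg3b, Reg1 or Reg4. Members and lists were chosen with earlier results of these data known. The fits were tested on simulated data.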

Additional observations from a re-analysis of the deposited data

Results flagged for a closer look

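Single libraries stood far from the other 4 of their group (Dixon's test at 95%) in 7 of 58 groups of values. Chance gives about 1 in 20 only for independent libraries and values, whereas replicates 4 and 5 lie near weighted sums of the others and the ratios share the same 7 genes, so the number of such groups is a description. In KSR23 replicate 1, Reg1 had a log2 CPM of 3.66 against 6.69 to 7.76 in the other libraries, and the log2 ratio of Reg1 to Reg4 was -0.92 against 0.97 to 1.42. In KSR23 replicate 2, the log2 ratio of Reg2 to Reg4 was -6.10 against -5.17 to -5.03, and that of Reg3g to Reg4 was 7.95 against 9.48 to 10.09. In KSR23 replicate 3, Reg3a to Reg3b was -12.22 against -11.76 to -11.61. In WT replicate 2, which had 3 Reg2 counts and 1 Reg3d count, Reg2 to Reg3d was 1.22 against 2.86 to 3.39 and Reg3b to Reg3d was 9.11 against 10.33 to 10.62.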

How the results depend on the processing

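With all 10 libraries, 5 of the 7 members were called under each alternative tried (tests, scaling, filter, block) except the filter of 5 or more counts in every library, which dropped Reg2 and Reg3d and called 4, and 5 to 6 were called with 1 library left out. The quasi-likelihood test on replicates 1 to 3, chosen after seeing the data, called 0 of 7 members (5 at an unadjusted p under 0.05). The difference in the Reg share was 10.1 to 12.3 points with 1 library left out, 10.1 points in replicates 1 to 3 (exact p = 0.1) and 11.1 points with a replicate block (exact sign-flip p = 0.0625). Both p-values are the smallest those designs allow. Of the 21 ratios, 18 to 20 differed with 1 library left out, 0 in replicates 1 to 3 and 0 with the replicate block, where the design cannot reach the threshold. Between same-numbered libraries, deviations from the group means had an r of -0.74, 0.41, -0.69, 0.36 and 0.49 (replicates 1 to 5). Of the 5 numbers, 1 correlated best with itself. The labels do not say whether same-numbered libraries were paired or handled together. With that block edgeR called 5 of 7 members. The log2 fold change of Reg2 reversed with the block (0.46), and ran from -0.79 to 0.14 with 1 library left out, positive without WT replicate 1. The log2 ratio shift of Reg1 over Reg2 reversed with a pseudocount of 2 (0.10), and ran from -0.52 to 0.57 with 1 library left out, positive without WT replicate 2, WT replicate 3 (0.34) or KSR23 replicate 1 (0.41). These have no call in either direction. Of the 23 tested IL-22 pathway genes 11 were called, but 7 by the quasi-likelihood test and 2 in replicates 1 to 3. In those replicates 5 acinar (8 with all libraries) and 2 goblet (7) markers were called, and 0 enterocyte (4), enteroendocrine (2), islet, immune and smooth muscle (1 each) markers. The quasi-likelihood test called 2 enterocyte, 1 enteroendocrine, 0 immune and 0 smooth muscle markers. The filter of 5 or more counts in every library, which by construction drops genes near 0 in either group, left 6 IL-22 pathway, 8 antimicrobial and 0 acinar genes called. With 1 library left out the lists gave 5 to 13 IL-22 pathway, 12 to 13 antimicrobial, 7 to 8 acinar, 5 to 6 Paneth and 5 to 7 goblet genes, 2 to 5 enterocyte (2 without WT replicate 1, 4 or 5 or KSR23 replicate 4), 0 to 3 enteroendocrine (0 without WT replicate 4 or 5 or KSR23 replicate 2 or 4), 0 to 1 islet (0 without WT replicate 5), 0 to 1 immune (0 without WT replicate 3, 4 or 5 or KSR23 replicate 3 or 5) and 0 to 1 smooth muscle genes (1 without WT replicate 2 or 3 or KSR23 replicate 3). The replicate block gave 2 enterocyte, 1 enteroendocrine, 0 islet, 0 immune and 0 smooth muscle genes. Counts of 3 or fewer limit Reg2 in WT replicate 2 and Reg3d in WT replicates 2 and 3. The causes were not tested.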
